A study of Mus musculus with 8 samples.

Results

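Motor proteins carry cargo along microtubules, and a retinal ganglion cell depends on them to supply an axon that runs from the eye to the brain. The 63 genes described here encode kinesins, cytoplasmic dyneins and dynactin. They are the rows, of 24942 in the table, whose symbol begins with Kif and a digit, with Dync, with Dynl, with Dctn and a digit, or is Klc1, Klc2, Klc3 or Klc4. By known role they fall into 15 kinesins that carry cargo in axons and dendrites, 4 kinesin light chains, 11 kinesins of mitosis and cytokinesis, and 10 ciliary and other kinesins. The others are 5 heavy, intermediate and light intermediate chains of cytoplasmic dynein 1, 9 dynein light chains, 2 genes of the ciliary dynein 2, 6 dynactin subunits and 1 pseudogene, Dynlt1-ps1, that was placed in no class.

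RNA was sequenced from mouse retinal ganglion cells at postnatal day 8, caught on plates coated with antibody (immunopanning) and lysed there without culture. There were 4 libraries from NPC1-deficient mice (NPC) and 4 from wildtype littermates (WT), and the labels name the strain balb/cnctr-npc1m1n/j for all 8. NPC1 is the lysosomal membrane protein that releases cholesterol from late endosomes and lysosomes, and it was lost from the whole animal rather than from a chosen cell type. The groups follow the titles. A further label field goes against them, with libraries 1 and 2 marked wildtype and libraries 3 and 4 marked homozygous in either group, and this division gives the library sets. Whether libraries stem from different animals is not in the labels, and every p-value therefore refers to the spread between libraries, which may be technical.

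Libraries held between 35416750 and 41875855 reads in NPC and between 33030175 and 44050118 in WT. Values are normalized reads, that is, reads divided by the size factor of the library. Npc1 itself had 139.8, 70.05, 67.6 and 66.1 normalized reads in the NPC libraries, against 706.7, 753.8, 830.7 and 856.7 in the WT libraries. Its log2 fold change, NPC over WT, was -3.25 with an SE of 0.20 (adjusted p = 3.23e-05 in limma), so the titles were followed. Summed reads of 10 ganglion cell markers, Pou4f2, Rbpms and Slc17a6 among them, were 271132 to 301018 in NPC and 260207 to 273761 in WT. Markers of other retinal cells were present at lower sums, and no marker was at 0 in every library. Over genes, library pairs of the same group had chi-square values per degree of freedom between 4.54 and 54.8, the 3 highest in pairs that hold NPC 2, so each library was counted as 1 sample. Between NPC and WT no motor gene was called with or without NPC 2.

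Kinesins walk mostly towards microtubule plus ends, which in an axon point to the tip, and dynein walks back towards the cell body. Kinesin-1 is made of KIF5 heavy chains and of light chains that hold cargo, while kinesin-2 and kinesin-3 carry endosomes and vesicle precursors. Dynein 1 needs dynactin, a multi-subunit partner that tethers it to cargo and microtubule and lets it run. Late endosomes and lysosomes use both directions of traffic. Mitotic kinesins build the spindle and divide the cell, and neurons that have left the cell cycle are known to keep little of them.

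Promoter sequences are given first, to set mitotic beside cargo kinesins. RefSeq promoters of GRCm38.p6 (250 bases before to 50 after a start) were at hand for 48 of the 63 genes, with 55 starts. The CHR element, letters TTTGAA, is known to hold cell cycle genes silent in resting cells, and the CCAAT box often lies near it. Both were searched on both strands, and both are in capitals, as TTTGAA or TTCAAA and as CCAAT or ATTGG. Kif5c, the cargo kinesin with the highest level per kb, and Kif1c, the gene whose groups did not overlap, are set against the mitotic Kif22 and Kif11. The windows are chr2:49619036-49619335 on the plus strand for Kif5c, chr11:70700298-70700597 on the plus strand for Kif1c, chr7:127042371-127042670 on the minus strand for Kif22 and chr19:37376132-37376431 on the plus strand for Kif11.
Kif5c: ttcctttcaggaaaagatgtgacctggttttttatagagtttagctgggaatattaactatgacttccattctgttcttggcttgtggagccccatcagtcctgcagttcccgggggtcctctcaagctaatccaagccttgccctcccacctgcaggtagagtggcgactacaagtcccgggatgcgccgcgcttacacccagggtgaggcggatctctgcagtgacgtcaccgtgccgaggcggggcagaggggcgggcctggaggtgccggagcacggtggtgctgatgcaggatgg
Kif1c: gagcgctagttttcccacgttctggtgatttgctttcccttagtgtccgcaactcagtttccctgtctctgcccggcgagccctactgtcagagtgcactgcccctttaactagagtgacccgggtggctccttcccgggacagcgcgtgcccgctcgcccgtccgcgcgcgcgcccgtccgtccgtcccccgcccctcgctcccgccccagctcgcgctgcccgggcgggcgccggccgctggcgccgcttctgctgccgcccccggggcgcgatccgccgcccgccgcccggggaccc
Kif22: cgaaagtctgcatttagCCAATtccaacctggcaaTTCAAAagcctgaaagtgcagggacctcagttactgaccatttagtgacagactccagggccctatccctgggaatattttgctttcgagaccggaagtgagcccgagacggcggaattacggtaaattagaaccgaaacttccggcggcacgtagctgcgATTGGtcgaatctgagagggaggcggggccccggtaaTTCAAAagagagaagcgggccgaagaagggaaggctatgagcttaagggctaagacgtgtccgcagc
Kif11: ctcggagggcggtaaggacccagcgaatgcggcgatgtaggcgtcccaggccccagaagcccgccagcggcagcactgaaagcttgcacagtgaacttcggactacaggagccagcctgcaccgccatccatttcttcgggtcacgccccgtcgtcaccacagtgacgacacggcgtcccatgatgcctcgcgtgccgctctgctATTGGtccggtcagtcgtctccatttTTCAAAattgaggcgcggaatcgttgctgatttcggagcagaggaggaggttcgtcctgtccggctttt
Kif22 holds TTCAAA at 215 and again at 17 bases before its start, with CCAAT at 233 and ATTGG at 54 bases. Kif11 holds TTCAAA at 19 and ATTGG at 45 bases before its start. The mitotic Kif2c, whose promoter is not printed here, holds TTCAAA farther off, at 103 bases before its start, and no CCAAT. In these windows no TTTGAA and no CCAAT was read for Kif5c or Kif1c, which says nothing of other sequence around them.

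TTTGAA was in 9 of the 10 mitotic kinesin promoters (90%), all but that of Kif18a. It was in 4 of the 45 promoters of the other genes (8.89%), those of Dctn1, Kif1a, Kif26b and Kif27. Among all 32851 promoters of the same length, 17.9% held it. CCAAT was in 6 of the 10 mitotic promoters (60%), against 37.8% of the other members' promoters and 37.4% of all promoters. The motifs were chosen after the values of the genes were known, and a match describes letters only.

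Levels of the motor genes spanned a wide range, from 11170 normalized reads per kb of exonic length for Dynll2 to 0.338 for Kif15. Lengths are the union of GENCODE M21 exons, so a gene with a long annotated isoform reads lower per kb. The median cargo kinesin had 243 normalized reads per kb and the median dynactin subunit 1602, against 2.75 for the median mitotic kinesin. The 5 highest were Dynll2, Dynlrb1, Klc1, Dctn3 and Dynll1, none of which is a chain with a motor domain. The catalytic chains were lower, with Kif5c first among cargo kinesins at 1070 per kb and the dynein heavy chain gene Dync1h1 at 81.9 per kb. Dync1h1 has 15658 exonic bases, and how evenly reads covered genes of such length was not tested. Levels of Dynlt1a, Dynlt1b, Dynlt1c, Dynlt1f and Dynlt1-ps1 are uncertain, because these near-identical copies can share reads.

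**Figure D1:**
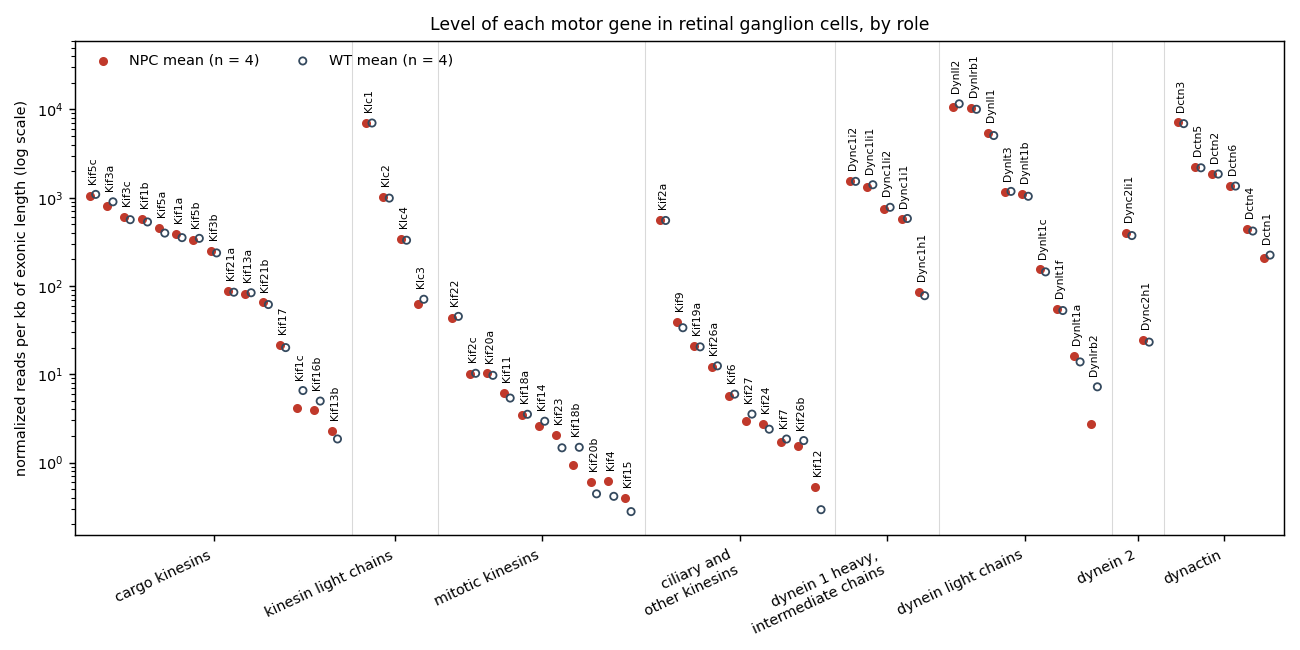
Mean normalized reads per kb of exonic length (log scale) of every motor gene except the pseudogene Dynlt1-ps1, grouped by role. NPC points are filled and WT points are open (means of 4 libraries). Dynll2, Dynlrb1, Klc1, Dctn3 and Dynll1 lie highest, the mitotic kinesins other than Kif22 lie among the lowest, and NPC and WT points of the well-read genes nearly coincide.

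No kinesin, dynein or dynactin gene was called between NPC and WT. Of the 63 genes, 56 had a mean of at least 10 normalized reads and were tested, and the smallest limma adjusted p was 0.301. Of all 15386 tested genes 16 were called (0.104%), Npc1 included, with 6 higher (0.039%) and 10 lower (0.065%) in NPC. Of the tested motor genes 34 had a positive and 22 a negative log2 fold change (NPC over WT), with a median of 0.03 against 0.005 over all tested genes. In 50 of the 56 genes the log2 fold change was smaller than 0.2 in size. At an unadjusted p under 0.05 there was 1 motor gene (1.79%), against 6.76% of all tested genes. The edgeR quasi-likelihood test on the recovered reads called 16 genes (0.104%) and DESeq2 246 (1.6%), and neither called a motor gene.

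The precision of these differences can be read from their intervals. The 95% interval of the log2 fold change lay wholly within 0.5 either way for 41 of the 56 motor genes, against 72.1% of all tested genes. Within 0.25 either way it lay for 17 of the 56, against 40.0% of all tested genes. Among the 6 dynactin genes 5 had an interval within 0.25, and among the 15 cargo kinesins 1 had. Changes of any size within a gene's interval are not excluded at this number of libraries. In bulk samples such as these, fewer cells of a type and less RNA per cell cannot be told apart.

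**Figure D2:**
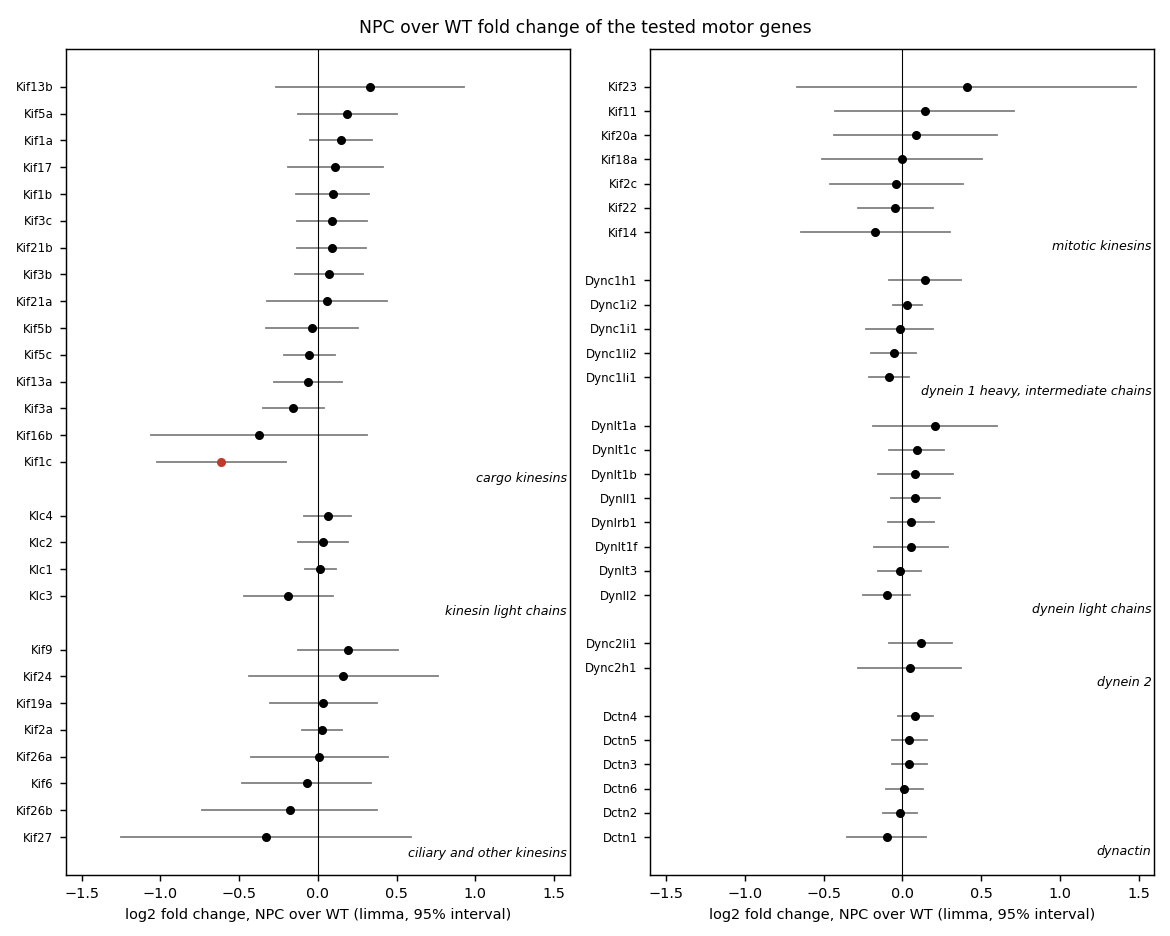
Log2 fold change (NPC over WT) of each tested gene except the pseudogene Dynlt1-ps1, with its 95% limma interval, grouped by role. Kif1c, in red, has the lowest fold change, -0.61, and no gene passed an adjusted p of 0.05.

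Per kb, the cargo kinesins were led by Kif5c, a neuronal heavy chain of kinesin-1, while Kif1b had more normalized reads. Kif5c had 7919, 8043, 6813 and 7195 normalized reads in the NPC libraries, against 8752, 7889, 7531 and 6968 in the WT libraries. The groups overlapped, and WT 1 was the highest library and NPC 3 the lowest. Its log2 fold change was -0.05 ± 0.07 (± SE, adjusted p = 0.995 in limma). Kif3a, a motor subunit of kinesin-2, which carries vesicles in neurons and builds cilia, had 2798, 3462, 2651 and 2687 normalized reads in NPC and 3343, 3208, 3496 and 2840.3 in WT. NPC 2 stood among the highest WT values, while the other NPC libraries lay below all WT libraries, and the log2 fold change was -0.16 ± 0.09 (± SE, adjusted p = 0.873 in limma). Kif1a, the kinesin-3 that carries synaptic vesicle precursors, had 3944, 3684, 3158 and 3743 in NPC and 3686, 2796, 3513 and 3176 in WT. The groups overlapped, with WT 2 lowest, and the log2 fold change was 0.14 ± 0.09 (± SE, adjusted p = 0.901 in limma).

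Kif1c (ENSMUSG00000020821, chromosome 11, 70700548 to 70731964, plus strand, mm10) was the only motor gene whose libraries did not overlap between the groups. It encodes a kinesin-3 that carries dense-core vesicles and other cargo. Kif1c had 30.9, 29.02, 29.4 and 32.01 normalized reads in NPC, against 49.01, 37.3, 43.8 and 60.1 in WT, with means of 30.3 ± 1.37 and 47.6 ± 9.63 (SD, n = 4 each). Every NPC library lay below the lowest WT library, and WT 4 was the highest. Its log2 fold change was -0.61 ± 0.19 (SE), with an unadjusted p of 0.00699 and a limma adjusted p of 0.301, so the gene did not pass the test. Adjusted p was 0.25 with the edgeR quasi-likelihood test and 0.354 with DESeq2, and it ran from 0.25 to 0.652 over all alternatives that tested the gene. Of all tested genes 657 (4.27%) had groups that did not overlap, 371 (2.41%) with NPC lower and 286 (1.86%) with NPC higher. The 1 motor gene of 56 is 1.79%. At 5.35 reads per kb, Kif1c lies among the lowest of the cargo kinesins.

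Markers of several other cell types had the same sign as Kif1c. All 8 rod markers had a negative log2 fold change, with summed reads of 1441 to 2033 in NPC and 2498 to 6103 in WT. All 6 amacrine markers did so too, with sums of 1401 to 2090 in NPC and 2437 to 4647 in WT. All 8 microglial markers were negative, with sums of 922.1 to 1880.3 in NPC and 1638 to 7930 in WT, and these overlap through WT 1. All 4 tested Müller glia markers were negative, with sums of 7630.0 to 8268 in NPC and 8415 to 9418 in WT. The sums of the other cell types overlapped between the groups. All 5 bipolar markers were negative, with 425.3 to 614.4 in NPC and 462.9 to 1294 in WT, as were all 4 tested endothelial markers, with 202.4 to 282.9 in NPC and 279.5 to 505.0 in WT. All 3 tested cone markers were negative, with 45.4 to 100.7 in NPC and 42.2 to 209.7 in WT. Pericyte markers (1 of 3 tested negative) summed to 231.3 to 460.1 in NPC and 300.2 to 378.4 in WT, and astrocyte markers (0 of 2 tested negative) to 170.1 to 186.0 in NPC and 156.4 to 174.4 in WT. In WT 4, where Kif1c was highest, the rod, amacrine, Müller glia, bipolar and cone sums were the lowest of the WT libraries. The microglial sum was the highest there, and the endothelial, pericyte and astrocyte sums lay within the range of the other WT libraries. None of these markers was called, and their part in the value of Kif1c was not tested.

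The other 11 cargo kinesins had log2 fold changes from -0.37 for Kif16b, an early endosome motor, to 0.33 for Kif13b, and both are low in reads. Over all 15 the median was 0.07, with 9 positive and 6 negative. Summed reads of the 15 genes averaged 38002 ± 4835 in NPC and 36891 ± 3440.2 in WT (SD, n = 4 each), a difference smaller than the spread between libraries.

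Kinesin light chains, which link KIF5 to its cargo, were dominated by Klc1. Klc1 had 29624, 30089, 28381 and 27516 normalized reads in NPC and 28914, 28294, 28103 and 28939 in WT, with overlapping groups and a log2 fold change of 0.02 ± 0.05 (± SE, adjusted p = 0.995 in limma). NPC 2 was highest and NPC 4 lowest. Klc2 had 4689, 4521, 3795 and 3812 in NPC and 4224, 4086, 4123 and 3929 in WT, with 10.6% of its exonic length opposite another gene. NPC 1 and NPC 2 were its highest libraries and NPC 3 and NPC 4 its lowest, and the log2 fold change was 0.03 ± 0.07. Klc4 had 769, 868, 851 and 791 in NPC and 819.6, 776, 808 and 732 in WT, and its groups overlapped (0.06 ± 0.07 on the log2 scale). Klc3 had 178, 177, 143 and 156 in NPC and 186, 179, 226 and 159 in WT. Its log2 fold change was -0.19 ± 0.13 (± SE, adjusted p = 0.928 in limma), and NPC 3 was lowest and WT 3 highest. The library kit keeps no strand and 28.1% of the exonic length of Klc3 lies opposite Ercc2, so over that stretch the origin of a read is uncertain.

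None of the 5 dynein 1 genes was called. Dync1i2, an intermediate chain that binds dynactin, had 12616, 13269, 12824 and 13135 normalized reads in NPC and 12914, 12908, 12191 and 12706 in WT. The groups overlapped, and the log2 fold change was 0.03 ± 0.04 (± SE, adjusted p = 0.995 in limma). Dync1li1, a light intermediate chain that holds cargo adaptors, had 4809, 5729.7, 4961 and 5023 in NPC and 5411, 5644, 5399.8 and 5262 in WT. NPC 2 was the highest library of all and the other NPC libraries lay below every WT library (-0.08 ± 0.06 on the log2 scale, limma adjusted p = 0.928). Its partner gene Dync1li2 had 4613, 4872, 4216 and 4354 in NPC and 4991, 4254, 4538 and 4979 in WT, with overlapping groups (-0.05 ± 0.07). Dync1h1, the heavy chain with the motor domain (chromosome 12, 110601452 to 110666945, plus strand, mm10), had 1634, 1268, 1163 and 1329.9 in NPC and 1410.0, 1197, 1089 and 1165 in WT. NPC 1 was highest, the groups overlapped, and the log2 fold change was 0.15 ± 0.11 (± SE, adjusted p = 0.945 in limma). Over the 5 genes the median log2 fold change was -0.02.

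None of the 6 dynactin genes was called either. Dctn3, a subunit of the shoulder, had 7397, 6930.5, 7726 and 7608 normalized reads in NPC and 6983, 7316, 6951 and 7519.7 in WT (0.04 ± 0.05 on the log2 scale). Dctn5, of the pointed-end cap, had 6117, 5521, 6128 and 6085 in NPC and 5669.7, 5847, 5619.8 and 5975 in WT (0.04 ± 0.05), and NPC 2 lay far below the other NPC libraries. Dctn4, of the same cap, had 5271, 4841, 5131 and 5306 in NPC and 4637, 4734, 5047 and 5014 in WT. The NPC values of Dctn4 lay mostly above the WT values but overlapped through NPC 2, with a log2 fold change of 0.08 ± 0.05 (± SE, adjusted p = 0.905 in limma). Dctn1, the large arm that touches the microtubule, had 1592, 1533, 1137 and 1202 in NPC and 1703, 1379, 1444 and 1299.9 in WT. NPC 3 and NPC 4 were its lowest libraries, and the log2 fold change was -0.10 ± 0.12. The class median was 0.03, with 4 of 6 positive, and summed reads averaged 32573 ± 686 in NPC and 32031 ± 778 in WT (SD, n = 4 each).

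A dynein light chain gene, Dynll2, had the highest level per kb of all motor genes. The median of its class, 1071 per kb, lay below the 1602 of dynactin. Dynll2, an LC8 chain used by many complexes beside dynein, had 30917, 27752, 30235 and 28891 normalized reads in NPC and 32006, 29052, 29493 and 36148 in WT. WT 4 was highest and NPC 2 lowest, and the log2 fold change was -0.10 ± 0.07 (± SE, adjusted p = 0.928 in limma). The other LC8 gene, Dynll1, had 18954, 19304, 22373 and 22869 in NPC and 18912, 20731, 18358 and 20758 in WT. NPC 3 and NPC 4 stood above all other libraries, while NPC 1 and NPC 2 lay within the WT range (0.08 ± 0.07). Dynlrb1, a roadblock chain, had 10446, 9293, 11168 and 11201 in NPC and 10100.4, 9904, 9517 and 10987 in WT (0.05 ± 0.07), with NPC 2 lowest. Dynlt1c, one of the near-identical Tctex-type copies, had 512, 608, 584 and 627 in NPC and 523, 575, 550.0 and 534 in WT (0.09 ± 0.08), and its groups overlapped. The 8 tested light chains had a median of 0.07, with 6 positive and 2 negative, and Dynlrb2 was below the filter. The pseudogene Dynlt1-ps1 had a log2 fold change of -0.18 ± 0.26.

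Dynein 2, the motor that returns cargo from the tip of a cilium, has 2 genes here. Dync2li1, its light intermediate chain, had 711, 760.5, 757 and 771 normalized reads in NPC and 644, 632, 663 and 847 in WT. WT 4 was the highest library and the other WT libraries lay below every NPC library, with a log2 fold change of 0.12 ± 0.09 (± SE, adjusted p = 0.957 in limma). Dync2h1, its heavy chain, had 479, 489, 298 and 331 in NPC and 396, 346, 391 and 380.4 in WT. NPC 1 and NPC 2 were above all WT libraries and NPC 3 and NPC 4 below them, so its log2 fold change of 0.05 ± 0.15 averages opposite differences.

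Ciliary and other kinesins were low apart from Kif2a. Kif2a, a kinesin-13 that takes microtubules apart and prunes axon branches, had 3736, 3764, 3382 and 3473 normalized reads in NPC and 3816, 3570.4, 3372 and 3364 in WT (0.02 ± 0.06 on the log2 scale). The groups overlapped, and 19.2% of its exonic length lies opposite Dimt1. Kif9, known from motile cilia, had 203, 150.1, 135 and 178 in NPC and 133, 147, 169 and 129 in WT, with NPC 1 highest (0.19 ± 0.15). Kif27, also of motile cilia, had 16.3, 27.02, 11.99 and 6.20 in NPC and 25.1, 19.2, 20.5 and 8.97 in WT (-0.33 ± 0.42), and library 4 was lowest in both groups. Kif26b, an atypical kinesin, had 20.9, 31.02, 21.8 and 17.6 in NPC and 23.9, 36.3, 24.2 and 19.7 in WT (-0.18 ± 0.25), with library 2 highest in both groups. Of the 10 genes 8 were tested, with a median of 0.02, and Kif7 and Kif12 were below the filter.

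Mitotic kinesins had few reads in both groups. The 11 genes together summed to 440.3 ± 38.6 normalized reads in NPC and 439 ± 31.3 in WT (SD, n = 4 each). Kif22, a chromokinesin, carried about as many reads as the rest together, with 239.6, 203, 204 and 212 in NPC and 249.6, 234, 193 and 211 in WT (-0.04 ± 0.11 on the log2 scale). Kif2c, which takes microtubules apart at centromeres, had 50.8, 42.03, 31.6 and 52.7 in NPC and 49.01, 40.4, 43.8 and 45.8 in WT (-0.04 ± 0.19), and NPC 3 was lowest. Kif11, the motor that pushes spindle poles apart, had 60.8, 56.04, 34.9 and 29.9 in NPC and 45.6, 40.4, 46.6 and 27.8 in WT (0.14 ± 0.26). NPC 1 and NPC 2 of Kif11 lay above every WT library, while NPC 3 and NPC 4 lay within the WT range. Kif14, of cytokinesis, had 28.1, 22.01, 26.2 and 29.9 in NPC and 26.2, 26.2, 27.97 and 41.3 in WT (-0.17 ± 0.22), with WT 4 apart from the rest. Kif23, of the central spindle, had 5.44, 18.01, 13.1 and 27.9 in NPC and 14.8, 8.07, 4.66 and 18.8 in WT. Its interval ran from -0.67 to 1.49 on the log2 scale, so a large change in either direction is not excluded. Kif4, Kif15, Kif18b and Kif20b were below the filter, each with at least 4 libraries at or under 3 reads. The summed reads of 14 cycling cell markers were 450.1 to 512.4 in NPC and 433.5 to 515.2 in WT, and their 13 tested genes split into 7 positive and 6 negative.

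Shares within a family describe which copy holds most of the RNA, free of changes that move the whole family. There were 23 shares computed per kb, and the exact two-sided permutation test over 70 assignments of the libraries allows no p below 0.0286. The KIF3 shares are of the sum of Kif3a, Kif3b and Kif3c only, which are kinesin-2 genes. Kif3a made up 47.1%, 48.9%, 50.4% and 48.5% of this sum in NPC, against 52.2%, 53.9%, 53.3% and 52.1% in WT. No NPC library reached a WT library. Means were 48.7 ± 1.35% in NPC and 52.9 ± 0.876% in WT (SD, n = 4 each, exact p = 0.0286, adjusted p = 0.219). The share of Kif3c was 36.2 ± 0.751% in NPC and 33.1 ± 1.71% in WT, also without overlap and with the same p, but 40.7% of its exonic length lies opposite other genes. That uncertainty also enters the share of Kif3a, because the sum includes Kif3c. Kif3b filled the rest, at 15.1 ± 1.26% in NPC and 13.99 ± 1.47% in WT (exact permutation p = 0.429). Kif1c made up 0.438 ± 0.0579% of the KIF1 family in NPC and 0.741 ± 0.190% in WT, with the same smallest p. At so small a part of the sum, this share mostly restates the level of Kif1c given above. No share passed the adjustment, and shares of one family depend on each other.

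Reads of all 3 kinesin-1 heavy chain genes were present in both groups, in bulk samples that also held markers of other retinal cells. Kif5c made up 57.2 ± 2.72% in NPC and 59.6 ± 1.71% in WT, Kif5a 24.6 ± 2.40% in NPC and 21.6 ± 1.33% in WT, and Kif5b 18.2 ± 0.789% in NPC and 18.8 ± 2.24% in WT. Klc1 held 83.3 ± 0.631% of the light chains in NPC and 83.5 ± 0.628% in WT. Dync1i2 held 73.05 ± 3.56% of the intermediate chains in NPC and 72.5 ± 0.679% in WT. Dynll2 held 66.8 ± 2.39% of the LC8 chains in NPC and 69.5 ± 2.07% in WT (exact permutation p = 0.143, adjusted p = 0.469). All of these shares overlapped between the groups.

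**Figure D3:**
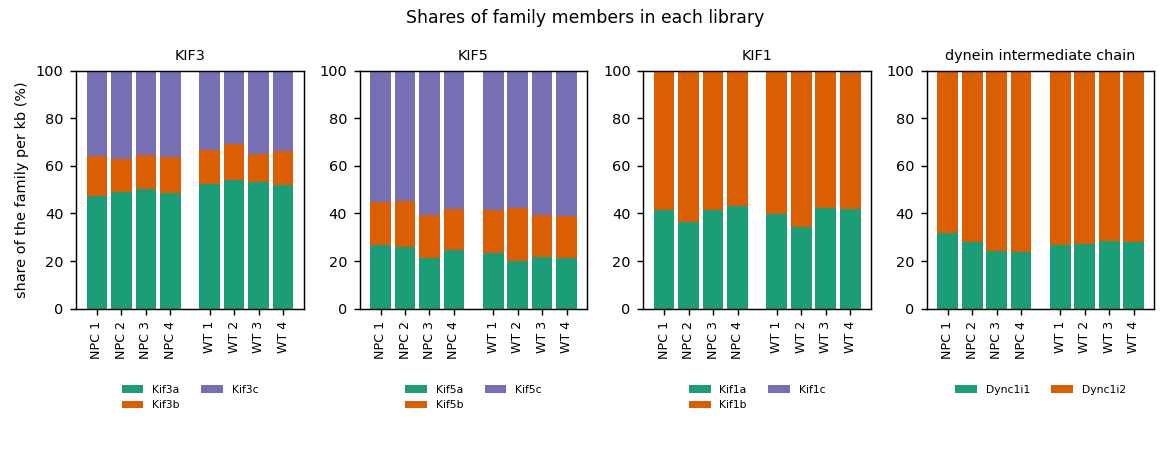
Stacked shares (percent of the per-kb sum) of the KIF3, KIF5, KIF1 and dynein intermediate chain families in each of the 8 libraries, with NPC left of WT. Kif3a is lower in every NPC library than in every WT library, 48.7% in NPC against 52.9% in WT on average, while the kinesin-1 and intermediate chain shares overlap. The adjusted p for the share of Kif3a was 0.219 (exact permutation test, adjusted over 23 shares). The KIF3 sum includes Kif3c, and 40.7% of the exonic length of Kif3c lies opposite other genes.

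The library sets differed in more cargo kinesins than NPC and WT did. In libraries 3 and 4 of both groups, 5 motor genes were lower than in libraries 1 and 2 at an adjusted p of 0.05 (8.93% of 56), against 1.74% of all tested genes called lower. No motor gene was called higher, against 0.435% of all tested genes, and in both directions 2.18% of all tested genes were called. All 5 are cargo kinesins, namely Kif5b, Kif21a, Kif3b, Kif1b and Kif5a, and they were singled out after their values were seen. Kif5b, the widely expressed kinesin-1 chain, had 2279.5, 2376, 2447 and 2205 normalized reads in NPC 3, NPC 4, WT 3 and WT 4, against 2901, 3142, 3024 and 3381 in NPC 1, NPC 2, WT 1 and WT 2. The sets did not overlap, and its difference was -0.42 ± 0.06 on the log2 scale (± SE, libraries 3 and 4 minus 1 and 2, limma adjusted p = 0.00534). Kif21a, a kinesin-4 that restrains microtubule growth, had 497, 465, 434 and 423 in libraries 3 and 4 and 668, 628, 725 and 619 in libraries 1 and 2, NPC before WT in each (-0.54 ± 0.08, limma adjusted p = 0.00708). Kif3b, a kinesin-2 chain, had 1185, 1305, 1228 and 1216 in libraries 3 and 4 and 1571, 1561, 1462 and 1433 in libraries 1 and 2 (-0.29 ± 0.05, limma adjusted p = 0.0191). The sets of Kif21a and Kif3b did not overlap either. Kif1b, which carries mitochondria and synaptic vesicle precursors, had 8297, 9321, 8978 and 8139 in libraries 3 and 4 and 10437, 12104, 10347 and 9948 in libraries 1 and 2 (-0.30 ± 0.06, limma adjusted p = 0.0278). Kif5a, the neuronal kinesin-1 chain, had 2335, 2965, 2616 and 2380.1 in libraries 3 and 4 and 3717, 3749, 3419.6 and 2693 in libraries 1 and 2 (-0.39 ± 0.09, limma adjusted p = 0.0446). For Kif5a alone of the 5 the sets overlapped, through NPC 4 and WT 2.

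The count of 5 depends on single libraries, as does the share of all tested genes called lower. Without NPC 2 there were 2 motor genes and 0.578% of all tested genes, without NPC 3 also 2 and 0.266%, without WT 1 also 2 and 0.669%, and without WT 4 also 2 and 0.566%. Without NPC 4 there were 3 and 0.838%. Without WT 3 there were 9 called, 8 of them lower, and 3.96% of all tested genes were lower. At an unadjusted p under 0.05, 17 motor genes differed between the sets (30.4%), against 17.7% of all tested genes. Sets did not overlap, with libraries 3 and 4 lower, in 6 motor genes (10.7% of 56), against 5.89% of all tested genes. These were Kif5b, Kif21a, Kif3b, Kif1b, Kif5c and Kif2a. In 1 motor gene, Dynlt1b, libraries 3 and 4 were higher without overlap, against 3.63% of all tested genes. Of the 15 cargo kinesins 13 had a negative set difference, with a median of -0.19, against 0.005 over all tested genes. Dynein light chains had a median set difference of 0.08 and dynactin 0.05. Npc1 did not follow the genotype of that label field, since WT 3 and WT 4, marked homozygous, had its highest values. What else the library sets stand for is not in the labels.

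**Figure D4:**
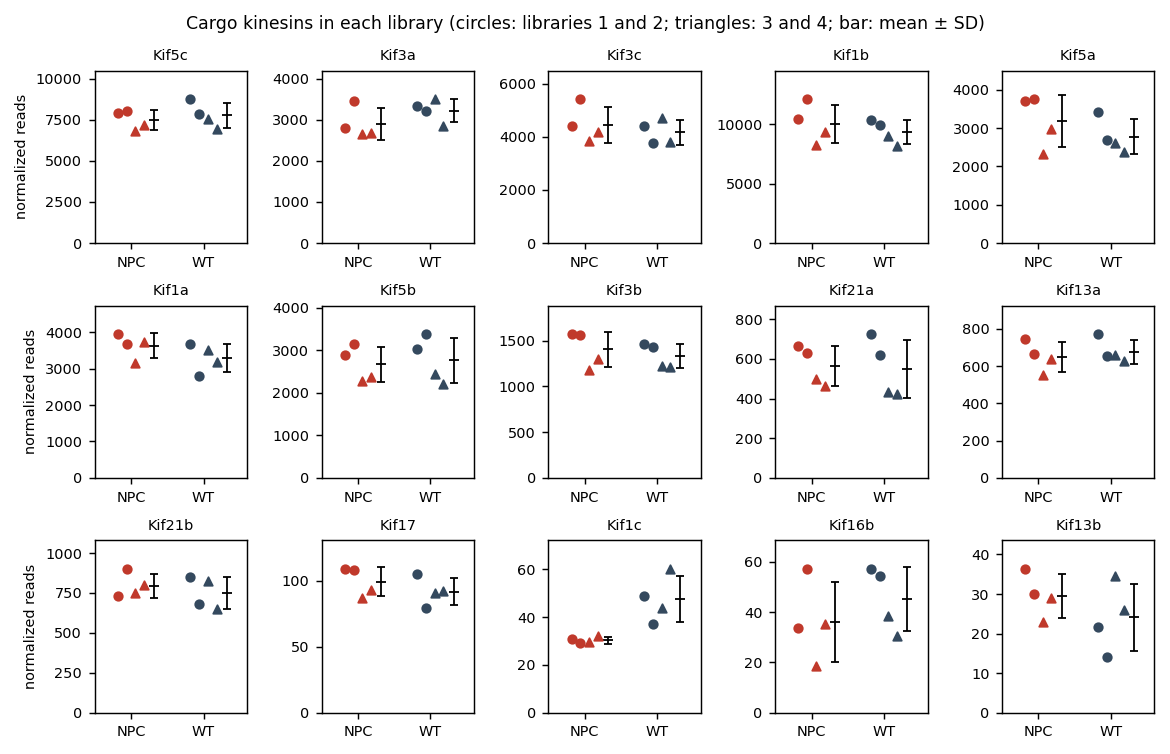
Normalized reads of each of the 15 cargo kinesins in each library, with NPC left of WT, libraries 1 and 2 as circles, libraries 3 and 4 as triangles and bars for the mean and SD (n = 4 each). Both triangles lie below both circles in each group for Kif5c, Kif1b, Kif5a, Kif5b, Kif3b and Kif21a, and Kif1c is lower in every NPC library than in every WT library.

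Exonic length went along with the set difference. Over the 56 motor genes the Spearman correlation between exonic length and the set difference was -0.38, and over 15235 genes with a length it was -0.27. The genes share their 8 libraries, so both are descriptions. Motor genes of at least 6 kb numbered 27 and had a median set difference of -0.13, against -0.06 over all genes of that length, and 4 of the 5 called genes were among them, all but Kif3b with 5635 bases. The 29 shorter ones had a median of -0.05, against 0.03 over all shorter genes. The NPC difference showed little of this, with correlations of 0.12 over the motor genes and -0.03 over all genes. The part of length in the set difference was not tested.

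**Figure D5:**
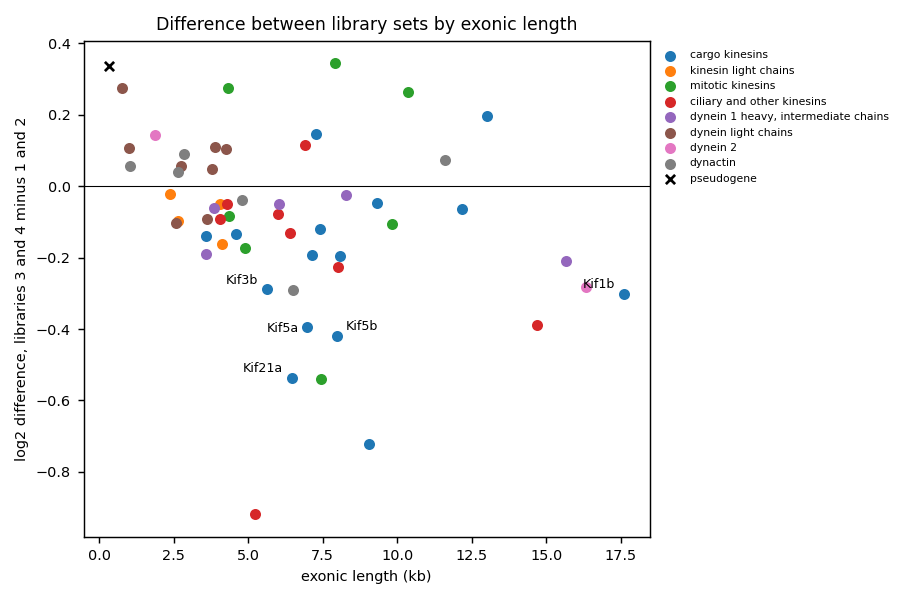
Difference between libraries 3 and 4 and libraries 1 and 2 (log2, from the fit with group and set) against exonic length in kb for the 56 tested genes, coloured by role. The 5 called genes, all cargo kinesins, are named and lie between -0.29 and -0.54, and many of the shortest genes lie above 0.

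The difference between NPC and WT itself was compared between the library sets with an interaction term. No motor gene was called, against 12 of 15386 genes (0.078%), and 5 had an unadjusted p under 0.05 (8.93%), against 13.4% of all tested genes. These were Dync2h1, Dync1i1, Klc2, Dynll1 and Kif13b, named after their values were seen. For Dync2h1 the NPC difference was lower by 0.68 in libraries 3 and 4 than in 1 and 2 on the log2 scale (interaction -0.68 ± 0.16, limma adjusted p = 0.132). Dync1i1, a neuronal intermediate chain, had 2514, 2212, 1782 and 1787 normalized reads in NPC and 2028, 2091, 2069 and 2119.9 in WT, with an interaction of -0.43 ± 0.10 (limma adjusted p = 0.146). NPC 1 and NPC 2 were its highest libraries and NPC 3 and NPC 4 its lowest. Without NPC 2, Dync1i1 was called among 117 of 15391 genes (0.760%), but NPC 1 is then the only NPC library of its set and is assumed to vary like the other groups. No motor gene was called in the fits that left out one of the other 7 libraries, and 0 to 52 of all tested genes were.

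Genes that work with the motors were counted from lists of adaptors and related proteins. Of 44 cargo adaptors, activators and regulators 42 were tested, none was called higher and none lower, 17 were positive and 25 negative, and the median log2 fold change was -0.02. Map7, a microtubule protein that recruits kinesin-1, had 103, 92.1, 82.9 and 89.8 normalized reads in NPC, against 225, 135, 176 and 116 in WT. Its groups did not overlap, and its log2 fold change was -0.78 ± 0.19 (± SE, adjusted p = 0.126 in limma), short of the threshold. The marker sums of rod, amacrine and Müller glia given beside Kif1c were lower in NPC too, and their part in the value of Map7 was not tested. Ppfia1, a liprin that scaffolds Kif1a cargo, had a log2 fold change of -0.24 ± 0.14. Rilp, which links Rab7 on late endosomes to dynein and dynactin, had 118, 125, 116 and 127 in NPC and 117, 110.0, 97.9 and 98.7 in WT (0.20 ± 0.12, limma adjusted p = 0.892), and its groups overlapped only through NPC 3.

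All 25 genes of the intraflagellar transport list were tested, with none called in either direction, 12 positive, 13 negative and a median of -0.00. Wdr34, an intermediate chain of dynein 2, had 1899, 1906, 1973 and 1977 normalized reads in NPC, against 1734, 1864, 1760.1 and 1804 in WT. No WT library reached the NPC range, and the log2 fold change was 0.12 ± 0.05 (± SE, adjusted p = 0.685 in limma). Tctex1d2, a dynein 2 light chain, had a log2 fold change of 0.17 ± 0.09, and Ttc21b, of the retrograde particle, 0.25 ± 0.13. Of 19 axonemal dyneins 13 were tested, with none called in either direction, 9 positive, 4 negative and a median of 0.06. Dnah17 had 0.72 ± 0.34, Dnah6 0.41 ± 0.28 and Dnah1 0.18 ± 0.14 on the log2 scale. Dnah17 and Dnah6 lay near the filter, with means of 15.1 and 12.1 normalized reads in NPC and 9.36 and 8.83 in WT. Of 7 other kinesin-related genes, among them Kifap3, which is not itself a motor, 5 were tested, with none called in either direction. Kifc3, Kifc5b and Kifc2 had -0.16 ± 0.11, 0.26 ± 0.24 and 0.04 ± 0.11.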

How the data were processed

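Total RNA of immunopanned retinal ganglion cells was made into libraries with the TruSeq v2 kit, per the labels' protocols, and that kit keeps no strand. The submitters' processing notes list, with no role, HTSeq 0.5.4p3, DESeq2 1.0.19, CASAVA 1.8.2 and build mm10. Which aligner and annotation were used is not given in the sources used here. Values in the authors' table are a normalized signal per gene, a read count over the size factor of its library as the deposited numbers show. All 199536 values (100%) came out as whole reads within 1e-06 of a read. A value of 0 allows up to 3 reads, or 2.69 to 3.42 normalized reads by library, counting error only. Without strand, the origin of reads is uncertain where antisense genes overlap, and how such reads were counted is not known here.

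Genes with a mean of at least 10 normalized reads were tested, which left 15386 of 24942. After adding 1 and taking log2, which understates the change of low genes, NPC was compared with WT in limma 3.58.1 (R 4.3.3, mean-variance trend, no covariate) with Benjamini-Hochberg adjustment over all tested genes at 0.05. The library set was tested as a second coefficient and as an interaction. The fit was repeated with pseudocounts of 0.5 and 5, without the filter or at a minimum of 50, after quantile scaling, with robust variance, with a replicate block, with a library set term, within each set, without each library, and with edgeR 4.0.16 and DESeq2 1.42.0 on the recovered reads. The limma fit was also run on simulated data, and the outcome is not given here. Exonic lengths came from GENCODE mouse M21 on the same build, in which all 63 genes were found. Promoters came from RefSeq GRCm38.p6.

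Members, role classes, gene lists and tests were chosen with earlier results of these data known. Values in every library are given for Npc1, for genes called or without overlap of the groups, and in each role class for the 3 with the smallest p and the 2 with the highest level per kb. Kif5b, Kif21a, Kif3b, Kif1b, Kif5a and Dync1i1 fall outside this rule and are shown for the library sets and the interaction. The library set coefficient, the family shares and the promoter motifs were added after the values of the members were seen.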

Additional observations from a re-analysis of the deposited data

Results flagged for a closer look

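Among the 31 motor genes chosen by overlap, p or level in their class, 62 groups of 4 libraries were searched for a library far from the other 3. Kif5b, Kif21a, Kif3b, Kif1b, Kif5a and Dync1i1, shown for the library sets and the interaction, are not among the 31. The gap of the farthest library, as a share of the group's range, passed Dixon's 95% critical value in 3 groups, and chance passes it in about 1 in 20. Dctn5, of the dynactin cap, had 5521 normalized reads in NPC 2, against 6085 to 6128 in the other NPC libraries. Dync2li1, of dynein 2, had 846.9 in WT 4, against 631.7 to 662.9 in the other WT libraries. Kif14, of cytokinesis, had 41.3 in WT 4, against 26.2 to 27.97 in the other WT libraries. No cause was tested.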

How the results depend on the processing

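No motor gene was called between NPC and WT under any of the 20 alternatives. The count over the whole table was 16 and moved to 246 with DESeq2, 57 with libraries 1 and 2 only, 335 with libraries 3 and 4 only, 99 with a term for the library set and 10 with a minimum mean of 50. Leaving out each library in turn gave 2 to 144 genes, the highest without WT 1. Deviations of same-numbered libraries correlated at -0.017, -0.033, -0.023 and -0.066, so the values show no pairing by replicate number. This check reads expression only and cannot settle how the libraries were collected. With the replicate number as a block 34 genes and 0 motor genes were called. No NPC library correlated best with the WT library of its own number.

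Of 613 values of the 31 motor genes under alternatives, 588 kept their direction, 25 reversed and 0 passed an adjusted p of 0.05. With libraries 1 and 2 only, the log2 fold change was 0.041 for Dync1li2, 0.028 for Dctn1, -0.022 for Dynlrb1, -0.050 for Dynll1, 0.054 for Kif2c and -0.11 for Kif23. With libraries 3 and 4 only it was -0.29 for Dync2h1, -0.029 for Klc1, -0.082 for Klc2, 0.042 for Kif22 and -0.15 for Kif11. Quantile scaling gave -0.015 for Klc1 and 0.059 for Kif2c. With each library left out in turn, the ranges that crossed 0 were -0.11 to 0.0043 for Kif5c, -0.64 to 0.012 for Kif27, -0.063 to 0.18 for Dync2h1, -0.0033 to 0.040 for Klc1, -0.021 to 0.080 for Klc2, -0.11 to 0.014 for Kif22, -0.13 to 0.11 for Kif2c and -0.020 to 0.32 for Kif11. Of the 31 genes 29 moved by more than 1.5 times without at least 1 library, all but Kif1c and Dctn4, and 21 of these kept their sign, such as Kif14 (-0.23 to -0.021), Kif26b (-0.33 to -0.013), Dctn1 (-0.18 to -0.018), Dync1h1 (0.049 to 0.22) and Kif23 (0.076 to 0.81). Kif1c stayed negative, from -0.72 to -0.50, and was not tested at a minimum mean of 50. Of 180 class medians 176 moved by less than the spread between libraries. The others were -0.095 for dynein 1, -0.13 for dynein 2 and -0.056 for kinesin light chains with libraries 3 and 4 only, and 0.30 for dynein 2 with libraries 1 and 2 only. Leaving out each library gave 0 to 1 motor genes called for the interaction, and 2 to 9 for the library sets. The cause of these shifts was not tested. Depth and 4 libraries a group limit the low genes most, and intervals of the tested motor genes under 30 reads all reached beyond 0.5 on the log2 scale.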
